A study of Mus musculus with 2 samples.

Results

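The genes of the mitochondrial calcium uniporter and of the voltage-dependent anion channels (VDAC), together with Letm1, gave nearly the same mRNA signal in P4H-TM KO cortex as in WT cortex. They were picked by name: every probe set of the array annotated to exactly 1 gene symbol was kept where that symbol was Mcu, Mcur1, Micu2, Micu3, Smdt1, Vdac1, Vdac2, Vdac3 or Letm1. All 9 genes were found, with 19 probe sets, among 18193 genes and 34945 probe sets with 1 symbol. Cortical RNA came from males with a knockout of P4H-TM (P4H-TM KO) and from WT males of the same litters, all of the C57BL/6J strain, aged 2.5 months and left untreated. For each genotype 4 mice were pooled, and each pool was hybridized to 1 Affymetrix mouse genome array, 2 arrays in all. Without replicate arrays the differences carry no p-value and no SD or SE between animals.

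Mitochondria take up calcium when its cytosolic concentration rises, which speeds ATP synthesis and blunts the cytosolic signal, and neurons and astrocytes rely on this near synapses and near sites of calcium release from the ER. Calcium first crosses the outer membrane through VDAC, a pore that also passes ATP, ADP and other metabolites. It then crosses the inner membrane through the uniporter, whose pore is MCU and which needs EMRE, the small subunit encoded by Smdt1, to conduct in animals. The MICU proteins sit at the pore and set the calcium level at which it opens, and LETM1 is an inner membrane protein that exchanges cations for protons. The study followed mitochondrial calcium in cultured astrocytes, which came from newborn pups of either sex and not from the young adult males of the arrays. The arrays measured the whole cortex, in which the signals of all cell types add up.

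The targeted gene P4htm had a log2 value of 9.10 in P4H-TM KO and 11.05 in WT on its brighter probe set, and 8.07 in P4H-TM KO and 9.71 in WT on the other. Its level was thus 3.86-fold and 3.12-fold lower in P4H-TM KO, which is the direction its label implies. P4htm lies on chromosome 9 and no member does: Letm1 lies on chromosome 5, Micu3 and Vdac3 on 8, Mcu on 10, Vdac1 on 11, Mcur1 on 13, Micu2 and Vdac2 on 14 and Smdt1 on 15. All values below are log2 values as the authors normalized them, and a difference is P4H-TM KO minus WT. Where a gene had several probe sets, the one with the highest mean of both arrays stood for it, and a probe set was taken as dim where that mean was under 6.385, the median of all probe sets.

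P4H-TM is counted among the enzymes that hydroxylate the α-subunits of the hypoxia-inducible factors (HIFs), which bind DNA at a short core motif. RefSeq promoter windows of build GRCm38.p6, from 250 bases before to 50 bases after a start site, were matched to 6 of the 9 genes, with 7 windows since Vdac1 has a pair of start sites. They were searched for the HIF core, spelled ACGTG or GCGTG, and for the same letters on the opposite strand, CACGT or CACGC. The windows of Mcu, the pore, of Mcur1, the gene with the largest difference here, and of the first Vdac1 start, the one with the most matches, are shown from 5′ to 3′ along the strand of the gene, with the core in capitals. The Mcu window is chr10:59616643-59616942 on the minus strand, the Mcur1 window chr13:43560142-43560441 on the minus strand, and the Vdac1 window chr11:52360601-52360900 on the plus strand.
Mcu: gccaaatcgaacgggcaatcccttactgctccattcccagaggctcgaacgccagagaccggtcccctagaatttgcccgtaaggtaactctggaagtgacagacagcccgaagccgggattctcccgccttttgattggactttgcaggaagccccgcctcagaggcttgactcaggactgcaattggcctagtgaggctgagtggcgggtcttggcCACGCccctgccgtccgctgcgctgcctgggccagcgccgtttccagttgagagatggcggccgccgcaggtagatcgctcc
Mcur1: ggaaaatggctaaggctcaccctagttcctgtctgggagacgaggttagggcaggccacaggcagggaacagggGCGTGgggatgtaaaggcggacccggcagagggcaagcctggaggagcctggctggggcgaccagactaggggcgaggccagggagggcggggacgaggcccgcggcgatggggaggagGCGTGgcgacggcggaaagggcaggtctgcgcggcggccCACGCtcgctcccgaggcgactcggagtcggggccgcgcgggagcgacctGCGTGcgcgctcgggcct
Vdac1: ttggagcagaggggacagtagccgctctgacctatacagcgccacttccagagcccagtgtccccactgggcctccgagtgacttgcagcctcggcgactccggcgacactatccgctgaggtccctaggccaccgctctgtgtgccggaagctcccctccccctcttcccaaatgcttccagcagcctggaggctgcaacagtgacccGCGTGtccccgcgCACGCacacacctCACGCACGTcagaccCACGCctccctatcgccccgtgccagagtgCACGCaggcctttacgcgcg

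The Mcu window held 1 core, the Mcur1 window 4 and the first Vdac1 window 6, of which a pair overlap by a base, while the second Vdac1 window held 1. Letm1, Micu2 and Smdt1 had 2 each. All 7 windows thus had a match, against 43.8% of the 32851 windows of all genes. The members' windows were rich in CpG, with 21 to 32 CpG against a median of 7 over all windows, and 74% of the 8148 windows with at least 21 CpG held a core. The ACGTG form, read on either strand, was found in 1 of the 7 windows, the first of Vdac1, against 19.6% of all windows. A match describes letters in a window and shows no binding.

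**Figure D1:**
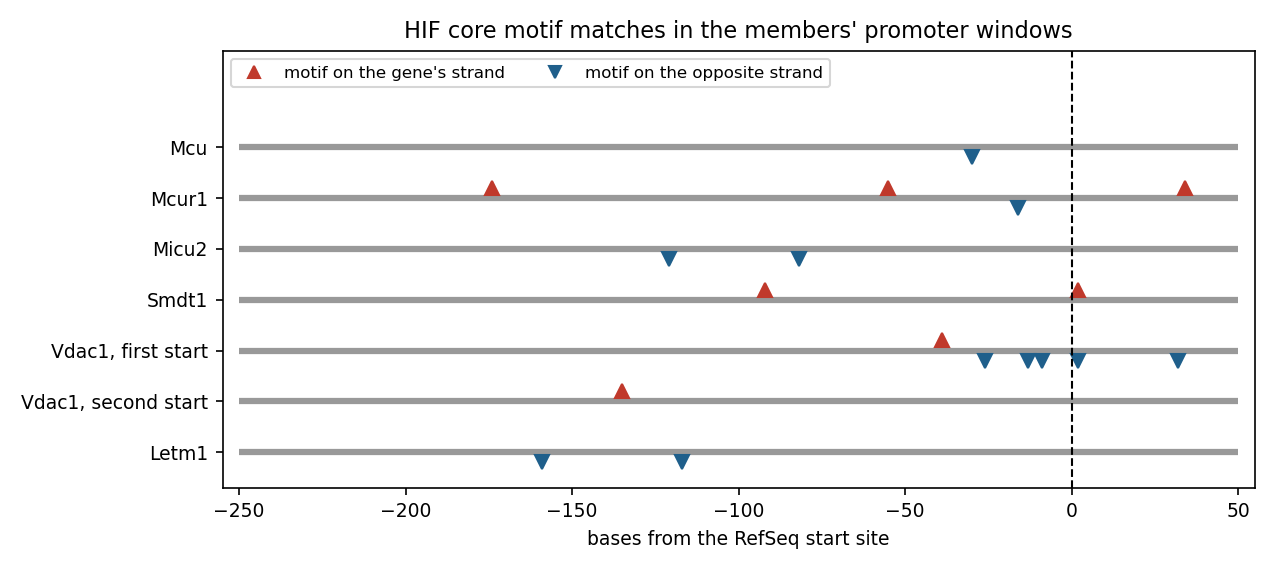
Matches to the HIF core motif in the promoter windows of 6 of the members, by distance in bases from the RefSeq start site (dashed line). Upward triangles are matches on the strand of the gene and downward triangles on the opposite strand; the first Vdac1 window holds 6 matches and the Mcu window 1.

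Of the uniporter genes, 4 of 5 had slightly lower values and 1 a slightly higher value in P4H-TM KO, and the differences ran from −0.10 to 0.04. Mcu, which encodes the pore, had 9.49 in P4H-TM KO and 9.50 in WT, a difference of −0.01. Its other probe set was dim, with 5.06 in P4H-TM KO and 4.95 in WT. The difference on this dim probe set was 0.11, opposite in sign to that of the brighter one. Over all dim probe sets with 1 gene, the median size of a difference was 0.13. Mcur1, a coiled-coil protein of the inner membrane that promotes uniporter activity, had 10.52 in P4H-TM KO and 10.62 in WT. This difference of −0.10 was the largest of the 9 genes and amounts to 0.933 times the WT level. The second probe set of Mcur1, at 6.41 in P4H-TM KO and 6.37 in WT, did not share its direction.

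Micu2, a gatekeeper of the pore, had 8.71 in P4H-TM KO and 8.67 in WT on its single probe set. Micu3, a relative found mainly in the nervous system that enhances uptake, had 11.77 in P4H-TM KO and 11.80 in WT, a difference of −0.03. On its dim probe set Micu3 had 5.0 in P4H-TM KO and 5.11 in WT, so that both of its probe sets were lower, by 0.03 and 0.11. Micu3 was the only member with several probe sets whose differences all had the same sign. Smdt1, which encodes EMRE, had 12.13 in P4H-TM KO and 12.18 in WT, a difference of −0.05, on its single probe set. Mcub, which encodes a pore subunit that lowers conductance, was not analysed here.

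The VDAC genes had differences between −0.01 and 0.06, with 2 of 3 higher in P4H-TM KO. Vdac1, the isoform that is most abundant in most tissues, had 13.01 in P4H-TM KO and 13.02 in WT on its brightest probe set. It was measured by 4 bright probe sets, which ran from 12.01 to 13.01 in P4H-TM KO and from 12.07 to 13.02 in WT. Their differences were −0.01, 0.02, 0.00 and −0.06, so no direction was shared between them. The remaining, dim probe set had 3.97 in P4H-TM KO and 4.03 in WT. Of these 5 probe sets, 4 have IDs ending in x_at, which marks probes that can also match other transcripts, and the probe set without that mark had 12.55 on both arrays.

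Vdac2, the isoform that holds the cell death protein BAK at the outer membrane, had 12.83 in P4H-TM KO and 12.77 in WT, a difference of 0.06. Vdac3, the least conductive isoform, had 12.13 in P4H-TM KO and 12.10 in WT, a difference of 0.03. Each has a single probe set, so neither small difference has a second reading on these arrays. Signals of different genes are not set against each other here, since probe sets differ in how strongly they respond.

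Among the 9 genes, Letm1 had the widest range of P4H-TM KO minus WT differences between probe sets of a single gene. On its brightest probe set it had 9.50 in P4H-TM KO and 9.45 in WT, a difference of 0.05. On the others it had 8.40 in P4H-TM KO and 8.44 in WT, 7.27 in P4H-TM KO and 7.09 in WT, and, on the dim one, 6.27 in P4H-TM KO and 6.43 in WT. The differences of 0.18 and −0.16 on the last 2 of these were the highest and the lowest of all 19 probe sets, they point in opposite directions, and the average over the probe sets of the gene was 0.0075.

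**Figure D2:**
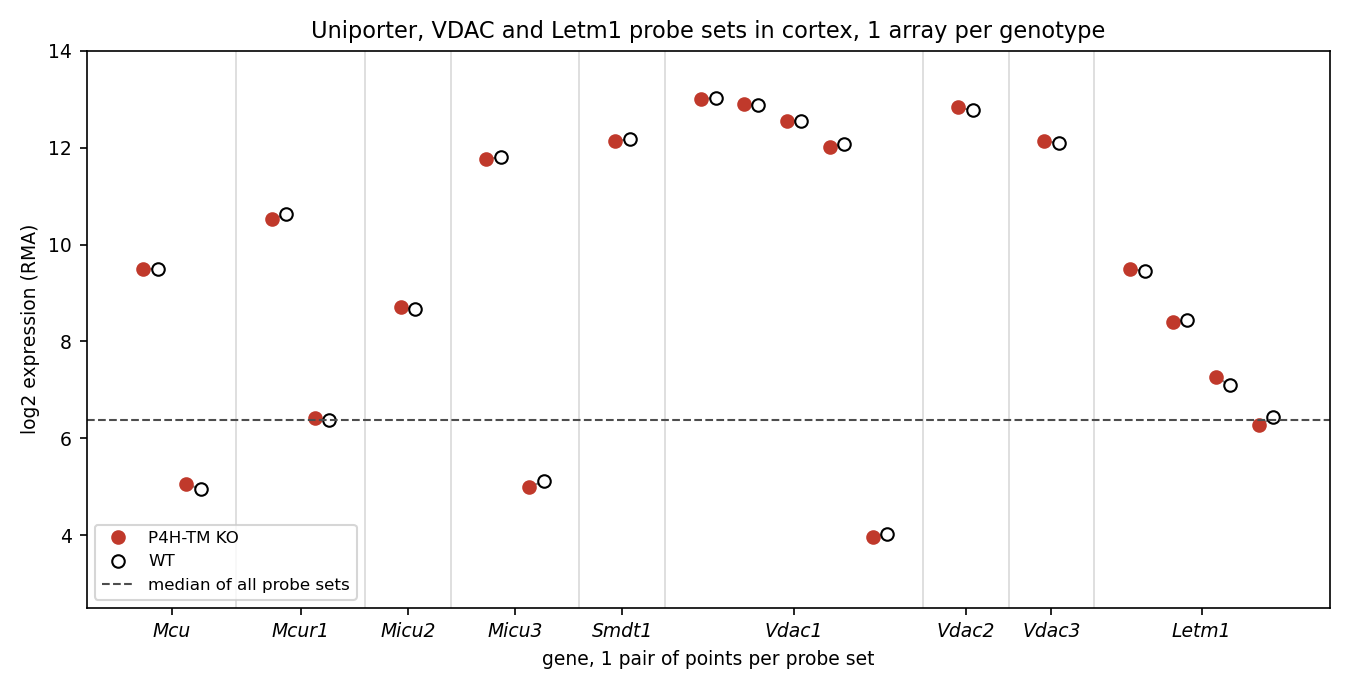
Log2 expression of every probe set of the 9 genes in P4H-TM KO (red points) and WT (open circles) cortex, each pair of points being 1 probe set on 1 array per genotype, without error bars. The dashed line is the median of all probe sets, 6.385; the points of each pair lie within 0.18 of each other.

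No member reached 1.5-fold in either direction, where 0.61% of all 18193 genes were at least 1.5-fold higher and 0.148% 1.5-fold or more lower. None reached 1.2-fold either, a log2 difference of 0.26, which 4.12% of all genes passed as higher and 4.91% as lower. Among the 11730 genes that were not dim, as all 9 members are, 2.90% were at least 1.2-fold higher and 1.83% lower. At such shares, a count of 0 among 9 genes is no result about these genes. On the level of probe sets, 1 of 19 was at least 1.1-fold higher and 1 at least 1.1-fold lower, both of Letm1, where 15.4% of all probe sets with 1 gene were higher and 17.5% lower by that much.

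Over the 9 genes the median difference was −0.01, with 4 higher and 5 lower in P4H-TM KO. Over all genes the median was 0.00, with 46.0% higher and 49.0% lower. Every member lay within 0.10 of 0, as did 60.1% of all genes and 69.9% of the genes that were not dim, and the median size of a difference, whatever its sign, was 0.04 for the members, 0.08 for all genes and 0.07 for the genes that were not dim. Between probe sets of the same gene the pooled SD of the difference was 0.101, computed from 5101 genes with several probe sets that were not dim. None of the 9 differences as deposited was larger than this spread, which describes these arrays and not the variation between animals. The difference of Mcur1 passed it slightly, at −0.11 with the arrays centred and at −0.1036 with the intensity trend removed. Rounding to 2 decimals alone can move a difference by up to 0.01.

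**Figure D3:**
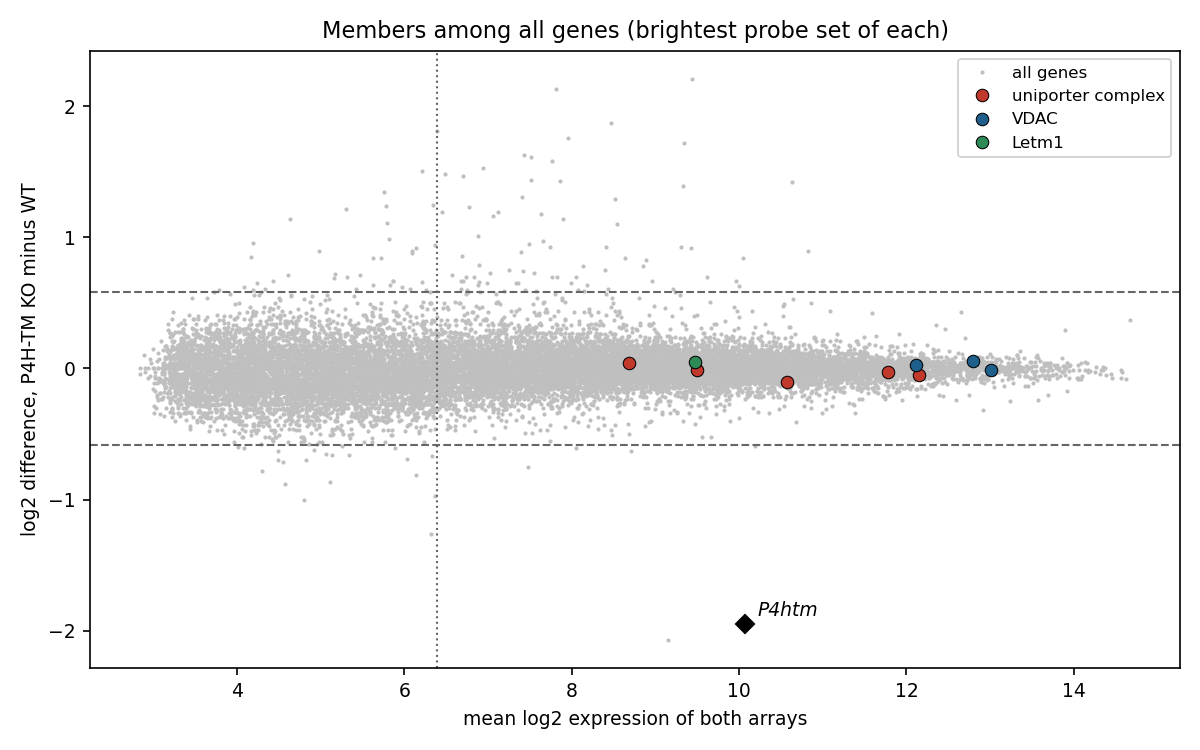
Log2 difference between P4H-TM KO and WT against the mean log2 expression of both arrays, 1 point per gene, with the uniporter genes in red, the VDAC genes in blue, Letm1 in green and P4htm as a black diamond. Dashed lines mark 1.5-fold and the dotted line the median of all probe sets; the 9 members lie between −0.10 and 0.06.

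Other genes of mitochondrial calcium handling, and of mitochondrial protein import and general mitochondrial content, were grouped in 7 lists. Of their 103 genes, 92 were measured. None of the 92 reached 1.5-fold, where 0.61% of all genes were higher and 0.148% lower by as much. At 1.2-fold, 2 were higher and 1 was lower, against 4.12% and 4.91% of all genes. Such counts are no result about these lists. The list medians ran from −0.01 to 0.035. In the list of other mitochondrial calcium transport, 6 of 11 genes were higher and 5 lower, with a median of 0.01. Slc25a25, a calcium-regulated carrier of ATP and phosphate, had 8.28 in P4H-TM KO and 7.98 in WT, the highest difference of this list at 0.30. Its dim probe sets were also higher in P4H-TM KO, by 0.25 and 0.14. Efhd1, a calcium-binding protein of mitochondria, had 9.46 in P4H-TM KO and 9.76 in WT, the lowest at −0.30, on its single probe set.

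The sodium/calcium exchanger of the inner membrane, which returns calcium to the cytosol and is encoded by Slc8b1, had 7.69 in P4H-TM KO and 7.49 in WT, a difference of 0.20. It has a single probe set. Ghitm, a proton-coupled calcium transporter that interacts with LETM1, had 12.42 in P4H-TM KO and 12.46 in WT, and 11.08 in P4H-TM KO and 11.07 in WT on its other probe set.

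Among the genes for uniporter quality control and turnover, such as the inner membrane proteases that degrade EMRE, 4 of 7 were higher and 3 lower, with a median of 0.02. Afg3l1 had 8.15 in P4H-TM KO and 8.0 in WT, and its second probe set differed by 0.17. Spg7 had 8.44 in P4H-TM KO and 8.61 in WT, and its dim probe set differed by −0.21. Of these protease subunits, Afg3l1 was the highest of the list. Spg7 was tied for lowest with Maip1, which had 8.96 in P4H-TM KO and 9.13 in WT, both at −0.17. Afg3l1 and Spg7 each kept their direction over both of their probe sets.

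The partners of VDAC and genes of the permeability transition had 8 of 12 genes higher and 4 lower, with a median of 0.035. Tspo, a cholesterol-binding protein of the outer membrane found beside VDAC, had 7.80 in P4H-TM KO and 7.45 in WT. This difference of 0.35 made it 1.27-fold higher, and its other probe sets differed by 0.47 and 0.15. Ppif, which encodes cyclophilin D, a regulator of the permeability transition pore, had 8.18 in P4H-TM KO and 8.29 in WT, with −0.12 on its other probe set. Tspo is thus the VDAC partner furthest from WT and Ppif the lowest of the list, while the VDAC genes themselves lay between −0.01 and 0.06.

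At contacts between ER and mitochondria, 6 of 13 genes were higher and 7 lower, with a median of −0.01. Hspa9, which encodes the chaperone GRP75 that links VDAC1 to the IP3 receptor, had 10.94 in P4H-TM KO and 10.92 in WT. Its other probe sets that were not dim differed by 0.01 and −0.01, and the dim ones by −0.03 and −0.41. Vapb, an ER tether, had 10.37 in P4H-TM KO and 10.24 in WT, and differed by −0.06 and −0.01 on its other probe sets. Pacs2, a sorting protein that maintains these contacts, had 10.03 in P4H-TM KO and 10.22 in WT, with −0.37 on a dim probe set. Of this list, Vapb was the highest and Pacs2 the lowest above the signal of dim genes.

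Mitochondrial dehydrogenases that calcium stimulates, and their regulators, had 10 of 16 genes higher and 5 lower, with a median of 0.03 and a range from −0.08 to 0.17. Ogdh, a subunit of the oxoglutarate dehydrogenase complex, had 10.27 in P4H-TM KO and 10.10 in WT, but differed by 0.01 on its other probe set. Pdpr, the regulatory subunit of pyruvate dehydrogenase phosphatase, had 9.46 in P4H-TM KO and 9.54 in WT, with differences from −0.31 to 0.03 on its others. Mitochondrial protein import had a median of 0.035, with Timm22 highest at 0.11 and Mtx1, which helps to insert VDAC into the outer membrane, lowest at −0.08. The list of general mitochondrial content, such as citrate synthase and respiratory subunits, had 10 of 19 genes higher and 8 lower, with a median of 0.01, Etfb highest at 0.13 and Nrf1 lowest at −0.12. Nrf1 differed by 0.13 to 0.17 on its other probe sets, so its direction rests on 1 probe set.

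Markers of the cells in the tissue were read beside these values. All 10 neuron markers and all 8 astrocyte markers were measured above the signal of dim genes, with medians of −0.025 and −0.02. In these bulk samples, fewer cells of a type and less RNA per cell cannot be told apart. Oligodendrocyte markers had a median of −0.29, with 7 of 7 measured lower in P4H-TM KO and their summed linear signal at 56896 in P4H-TM KO and 63721 in WT. Choroid plexus markers had a median of 1.63, with 9 of 9 measured higher and sums of 35617 in P4H-TM KO and 24796 in WT, and meninges markers one of 0.385, with 8 of 8 higher and sums of 5635 in P4H-TM KO and 3457 in WT. Medians were 0.05 for cortical layer markers, 0.01 for microglia markers and 0.15 for endothelial markers. The oligodendrocyte, choroid plexus and meninges markers differed between the P4H-TM KO and WT pools, while the members stayed within 0.10 of 0. Without replicate pools these marker differences cannot be assigned to genotype, since the amount of each tissue dissected into a pool may also differ. The part of these tissues in the values of Tspo, Slc25a25, Efhd1 or any member was not tested.

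**Figure D4:**
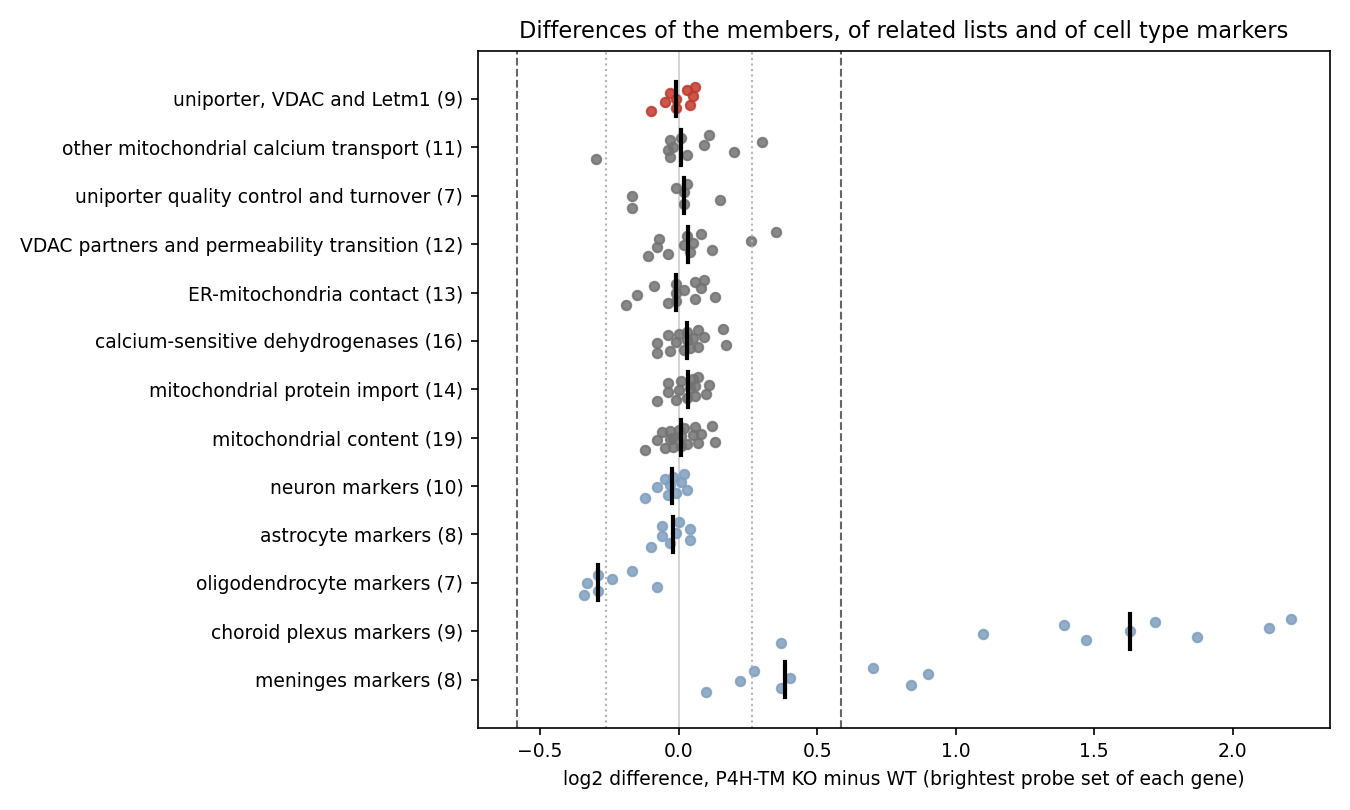
Log2 difference between P4H-TM KO and WT for each measured gene (points) of the 9 members, of the 7 related lists and of marker lists of 5 tissues or cell types, with the number of genes in parentheses. Black bars are medians, dotted lines mark 1.2-fold and dashed lines 1.5-fold; the members and the related lists centre near 0, and the choroid plexus markers have a median of 1.63.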

How the data were processed

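Total RNA of cortical tissue was labelled with biotin and hybridized to Affymetrix mouse genome arrays, 1 pool of 4 mice per genotype. The authors read the scans in the GeneChip Operating System and used GenePattern for normalization. RMA is the tool in the submitters' processing notes; versions are not given in the sources used here. The deposited values are log2 values per probe set, rounded to 2 decimals, from 2.69 to 14.91. RMA aligns the distributions of both arrays, so a shift shared by most genes would not be seen.

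Of 45101 probe sets, 64 controls, those with several symbols (932) and those without a symbol (9211, controls included) were left out. Symbols follow the platform annotation, and 34741 of the 34945 remaining probe sets matched RefSeq (GRCm38.p6) by gene ID. Each gene took its probe set with the highest mean. No test was possible, and the number of arrays limits the precision. The members, lists and thresholds were chosen with earlier results of these data known. Named genes are all members, P4htm, a few fixed genes and the highest and lowest gene of each list that was not dim. The alternatives averaged probe sets, dropped those that can match other transcripts, centred the arrays, removed the intensity trend (loess, span 0.3), filtered dim genes or changed the thresholds. The fold counts and the removal of the intensity trend were tested on simulated data, and the other steps were not. The work used matplotlib 3.10.9 and statsmodels 0.14.6 with pandas 2.3.3 and numpy 2.4.6 under Python 3.11.15.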

Additional observations from a re-analysis of the deposited data

How the results depend on the processing

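Over 45 alternative values of the members' differences, none moved by as much as the pooled SD of 0.101 between probe sets. The values ran from −0.11 to 0.07. Many of them could hardly move. Filtering dim genes left every member as it was, and dropping probe sets that can match other transcripts changed only Vdac1. Centring shifted all members by the same amount, and averaging could not change genes with a single probe set. Mcur1 alone passed that SD in size, at −0.11 with the arrays centred and −0.1036 with the intensity trend removed. The sign of the smallest differences is not stable: Mcu had −0.01 on its brightest probe set and 0.05 with its probe sets averaged, and Vdac1 had 0.00 on the probe set that is not marked as matching other transcripts. The median of the members ran from −0.02 to 0.0075 over 6 alternatives. No member reached 1.5-fold or 1.2-fold under any of the alternatives, nor 1.1-fold on its brightest probe set. The 4 higher and 5 lower members became 5 and 4 with probe sets averaged. The medians of the 7 related lists ran from −0.02 to 0.09 over 42 alternatives, the last being that of other mitochondrial calcium transport with probe sets averaged. With 1 pool per genotype no replicate could be left out, and differences of the size seen here cannot be told apart from variation between pools.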
